A study of Mus musculus with 4 samples.

Results

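Integrins are receptors of the cell surface in which an α chain pairs with a β chain. The 9 mouse integrin chains described here were chosen by gene symbol: the α chains *Itgae* (CD103), *Itga4*, *Itgal*, *Itgav* and *Itga6*, and the β chains *Itgb7*, *Itgb1*, *Itgb2* and *Itgb3*. They are 9 of the 47729 genes in the table of counts, and all 9 were among the 12536 genes with enough reads to be tested. RNA was sequenced from 4 libraries of Treg cells, 2 labelled WT (Tfrc +/+ Foxp3 YFP-Cre/+) and 2 labelled TfR1 cKO (Tfrc fl/fl Foxp3 YFP-Cre/+). Both groups were C57BL/6, and both carried one *Foxp3* YFP-Cre allele, from which Treg cells make Cre recombinase together with a yellow fluorescent protein. The mice were female by the methods of the study, so the allele lies on 1 of 2 X chromosomes, and CD25+YFP+ cells were sorted. A TfR1 cKO mouse of this kind therefore still holds Treg cells that never made Cre. The labels name the spleen as the tissue, while a legend of the study gives spleen and lymph nodes, and the study's general statement on animals puts its mice, apart from the male cKO line, at a matched young adult age.

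Integrins hold T cells to vessel walls, to other cells and to the matrix of a tissue. CD103 pairs with β7, and the dimer binds E-cadherin on epithelial cells; on Treg cells it marks effector and tissue-dwelling cells, and TGF-β is known to raise it. α4 pairs with β7 to bind MAdCAM-1 on the vessels of the gut, or with β1 to bind VCAM-1 and fibronectin. αL and β2, which together form LFA-1, bind ICAM-1 and ICAM-2 and hold the contact with antigen-presenting cells. αv pairs with several β chains, β3 among them, to bind vitronectin and latent TGF-β, and α6 pairs with β1 to bind laminin. Binding is switched on from inside the cell, when talin and kindlin seize the tail of the β chain.

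The stretches through which this switching runs were read from the coding transcripts of GENCODE vM1 (build NCBIM37), because the tails are what all 9 chains have in common. They are written 5′ to 3′ along the transcript, with 18 bases on each side. In the α chains, the capitals mark the 15 bases of the motif next to the membrane that is named GFFKR after its amino acids. Of these 15 bases, 9 were identical in all 5 α chains.

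*Itgae*: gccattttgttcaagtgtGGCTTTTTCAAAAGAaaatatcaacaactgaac
*Itga4*: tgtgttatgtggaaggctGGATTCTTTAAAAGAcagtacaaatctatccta
*Itgal*: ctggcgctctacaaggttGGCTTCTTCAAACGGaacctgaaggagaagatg
*Itgav*: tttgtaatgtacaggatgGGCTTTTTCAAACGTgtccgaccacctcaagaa
*Itga6*: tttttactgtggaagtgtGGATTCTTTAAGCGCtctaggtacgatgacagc

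In the β chains, the capitals mark the 12 bases of the tail motif to which talin binds. Of these 12 bases, 6 were identical in all 4 β chains. The bases on either side of the motifs differed more from chain to chain.

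*Itgb7*: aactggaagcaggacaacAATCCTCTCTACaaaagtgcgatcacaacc
*Itgb1*: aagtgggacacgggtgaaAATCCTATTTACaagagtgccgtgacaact
*Itgb2*: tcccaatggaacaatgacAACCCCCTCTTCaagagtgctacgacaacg
*Itgb3*: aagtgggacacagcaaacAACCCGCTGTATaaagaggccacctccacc

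Several facts of the libraries stand before the results. Totals ran from 10841939 to 17278448 counts. Levels are given in CPM, counts scaled to library size with TMM factors. The floxed gene, *Tfrc*, had 50.8 and 54.1 CPM in WT, against 56.1 and 48.3 CPM where the label was TfR1 cKO. It overlapped between the genotypes, deleted exons cannot be seen in counts of whole genes, and each direction given here rests on the labels. The summed level of 20 macrophage markers was 806 and 87.7 CPM in WT and 59.9 and 2586 CPM in TfR1 cKO, so WT replicate 1 and TfR1 cKO replicate 2 stand apart from the others. All 8 Treg cell markers were found in every library, and their sum was 4894 and 4655 CPM in WT against 4068 and 3611 CPM in TfR1 cKO. No source ties the libraries to single mice, so p-values measure only the spread between these libraries.

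CD103 had the largest genotype difference of the 9 chains. *Itgae* (ENSMUSG00000005947; chr11:73090505-73147449, build GRCm38.p6) stood at 59.1 CPM in the first WT library and at 47.1 CPM in the second. The libraries labelled TfR1 cKO had 18.3 and 10.6 CPM. These levels rest on 722 and 502 reads in WT and on 318 and 145 reads in TfR1 cKO. Both TfR1 cKO libraries lay below both WT libraries, and the gap between the groups was wider than the spread within either. The log2 fold change of *Itgae*, TfR1 cKO against WT, was -1.87 with a standard error of 0.32. The quasi-likelihood test of edgeR gave it an unadjusted p of 0.0019 and, after Benjamini-Hochberg adjustment over all genes, an adjusted p of 0.911. In bulk RNA, fewer CD103+ cells and less *Itgae* RNA per cell cannot be told apart.

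The call on *Itgae* depended on the test. With edgeR, 0% of the 12536 genes passed an adjusted p under 0.05 with a log2 change of at least 0.5, while the Wald test of DESeq2 on the same genes called 0.263% of them lower, 33 genes, *Itgae* among them (adjusted p = 0.000165). edgeR without a filter on low counts called 0.425% of 22368 genes lower, again with *Itgae* (adjusted p = 3.2e-09). At an unadjusted p under 0.05 in edgeR with the same minimum change, 2.48% of all genes were lower, and *Itgae* was the only one of the 9 chains. With each library left out in turn, its log2 fold change lay between -2.29 and -1.54. *Itgae* was lower both where macrophage RNA was low, by a log2 fold change of -1.35 (WT replicate 2 against TfR1 cKO replicate 1), and where it was high, by -2.46 (WT replicate 1 against TfR1 cKO replicate 2). These are single pairs with no test.

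*Haspin*, which encodes a protein kinase of cell division, lies within *Itgae* on the other strand (chr11:73135484-73138294). The sources used here do not say whether the counting used strand. *Haspin* was at 10.8 and 5.16 CPM in WT and 6.74 and 11.4 CPM in TfR1 cKO, in overlapping ranges. These levels rest on 132 and 55 reads in WT and on 117 and 156 reads in TfR1 cKO. The part of *Haspin* reads in the *Itgae* counts was not tested.

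*Itgb7*, which encodes the partner chain of CD103 (chr15:102215994-102233405), did not separate the genotypes. It was at 768 and 447 CPM in WT and at 617 and 676 CPM in TfR1 cKO. The 2 WT libraries lay on either side of the TfR1 cKO ones. Its log2 fold change was 0.09 with a standard error of 0.28 and an adjusted p of 0.990 in edgeR. The direction rested on which WT library was used: without WT replicate 2 the log2 fold change was -0.25, and without WT replicate 1 it was 0.55, with an unadjusted p of 0.045 in edgeR. *Itgb7* was also higher in both libraries with much macrophage RNA than in both others, as were 22.9% of all genes tested, and the part of that RNA in its level was not tested.

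**Figure D1:**
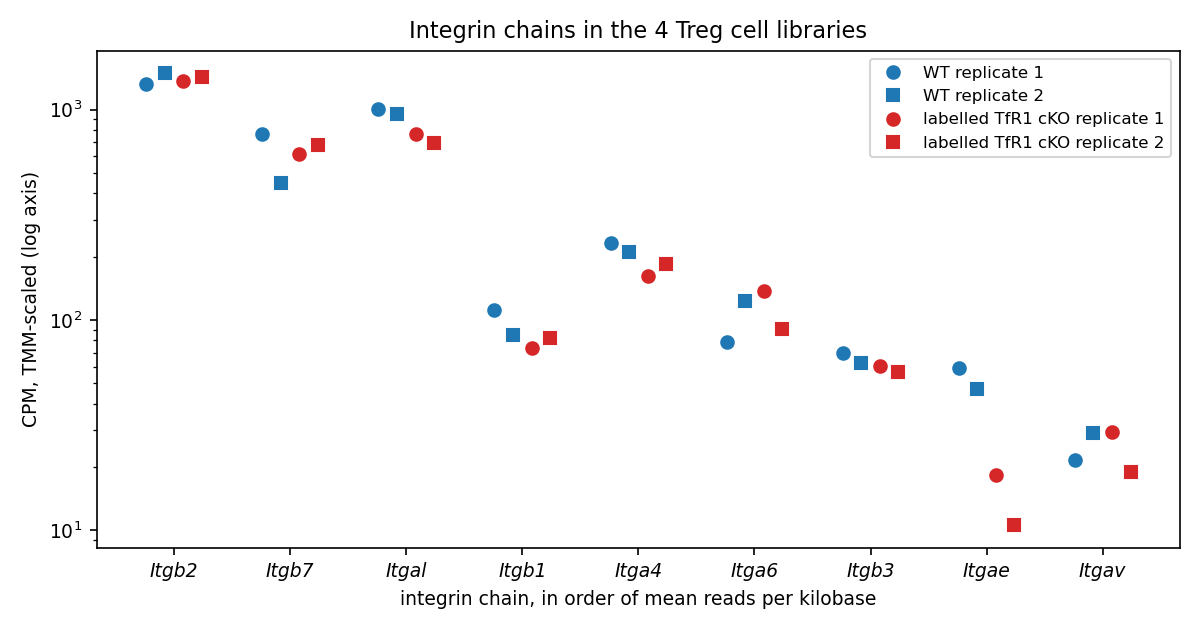
The level of each of the 9 integrin chains in the 4 libraries, in TMM-scaled CPM on a log axis, with the chains ordered by mean reads per kilobase. *Itgae* is at 59.1 and 47.1 CPM in the WT libraries (blue) and at 18.3 and 10.6 CPM in those labelled TfR1 cKO (red), while the points of *Itgb2*, *Itgb7*, *Itga6* and *Itgav* overlap between the groups.

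The α4 chain and its other partner, β1, were slightly lower in the libraries labelled TfR1 cKO, and neither passed the test. *Itga4* (chr2:79255426-79333114) was at 232 and 211 CPM in WT and at 161 and 185 CPM in TfR1 cKO. Its log2 fold change was -0.35 with a standard error of 0.15 (edgeR, unadjusted p = 0.061, adjusted p = 0.911). Its groups did not overlap, and without TfR1 cKO replicate 1 the log2 fold change was -0.23. The last exons of *Itga4* lie beside *Cerkl*, whose annotated span overlaps its end on the other strand and which had 76 to 190 reads per library, so a small part of either count could belong to the other gene.

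*Itgb1*, the β chain with the widest choice of partners (chr8:128685654-128733579), was at 112 and 84.9 CPM in WT and 73.3 and 82.6 CPM in TfR1 cKO. The lower WT value was close to the higher TfR1 cKO value. The log2 fold change was -0.34 with a standard error of 0.19 (edgeR, unadjusted p = 0.130, adjusted p = 0.923). Without WT replicate 2 it was -0.53 (edgeR, unadjusted p = 0.0464), and without WT replicate 1 it was -0.11.

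The 2 chains of LFA-1 gave unlike values. *Itgal*, the αL chain (chr7:127296139-127335137), was at 1011 and 952 CPM in WT and at 770 and 691 CPM in TfR1 cKO. The groups did not overlap, and replicates lay close together. Its log2 fold change was -0.43 with a standard error of 0.14, and edgeR gave an unadjusted p of 0.0268 and an adjusted p of 0.911. With any library left out, its unadjusted p in edgeR was at least 0.0712, with a log2 fold change between -0.47 and -0.35. At an unadjusted p under 0.05 and a lower level of any size, *Itgae* and *Itgal* were 2 of the 9 chains, against 3.34% of all genes tested.

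*Itgb2*, the β2 chain (chr10:77530329-77565708), was at 1327 and 1489 CPM in WT and at 1376 and 1431 CPM in TfR1 cKO. Both TfR1 cKO values lay between the WT ones. The log2 fold change was -0.0046 with a standard error of 0.14 (adjusted p = 0.999 in edgeR), and its sign turned with the scaling, to 0.0094 with DESeq2 size factors and 0.033 with library totals.

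The 3 remaining chains bind matrix proteins and did not pass the test. *Itgav* (chr2:83722303-83806917) was at 21.6 and 29.0 CPM in WT and 29.4 and 19.1 CPM in TfR1 cKO, with a log2 fold change of -0.06 and a standard error of 0.30. *Itga6* (chr2:71786886-71858427) was at 79.1 and 123 CPM in WT and 137 and 91.0 CPM in TfR1 cKO, with a log2 fold change of 0.18 and a standard error of 0.30. Both chains overlapped between the genotypes, and both were lower in the 2 libraries with much macrophage RNA than in the others, as were 25.5% of all genes tested. Their signs turned when single libraries were left out, over -0.38 to 0.21 for *Itgav* and -0.12 to 0.53 for *Itga6*.

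*Itgb3*, which pairs with αv or, on platelets, with αIIb (chr11:104608000-104670476), was at 69.9 and 62.3 CPM in WT and at 60.4 and 56.7 CPM in TfR1 cKO. The groups lay close together without overlapping. The log2 fold change was -0.18 with a standard error of 0.15 (adjusted p = 0.950 in edgeR), and it was -0.07 without WT replicate 1 and -0.26 without WT replicate 2. The 8 platelet markers summed to between 0.876 and 1.69 CPM per library, with 3 of them at 0 in all 4. The cells that gave the *Itgb3* RNA were not tested.

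Over the 9 chains, 7 log2 fold changes were below 0 and the median was -0.18, against a median of 0.0085 over all genes tested. The median of the 9 was -0.11 without WT replicate 1 and -0.26 without WT replicate 2. In 5 of the 9 (*Itgae*, *Itga4*, *Itgb1*, *Itgal* and *Itgb3*) both TfR1 cKO libraries lay below both WT libraries, as they did in 18.9% of all genes. In 0 of the 9 did both lie above, as they did in 16.0% of all genes. These chains were measured in the same 4 libraries and are not independent of one another. The summed level of the 9 chains was 3679 and 3445 CPM in WT and 3244 and 3243 CPM in TfR1 cKO. The Treg cell markers were lower too: 7 of their 8 log2 fold changes were below 0, with a median of -0.34, and 5 of the 8 were lower in both TfR1 cKO libraries. Their part in the lower integrin values was not tested.

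**Figure D2:**
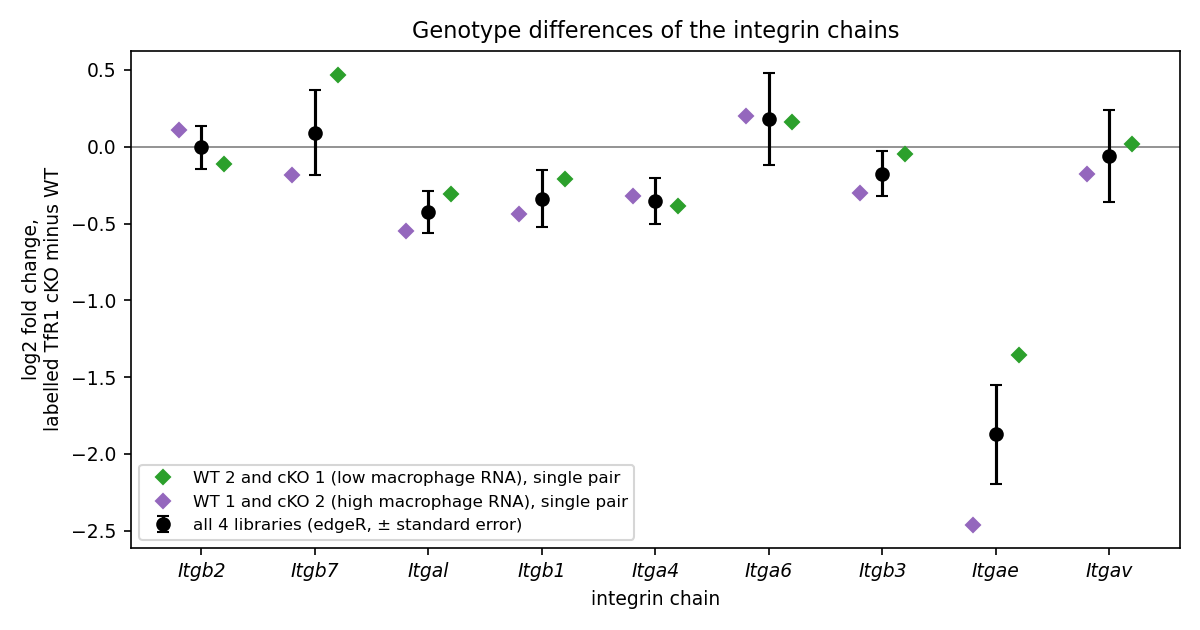
The log2 fold change of each integrin chain, TfR1 cKO minus WT, with its standard error from edgeR over all 4 libraries (black), beside the single pair of libraries with little macrophage RNA (green) and the single pair with much (purple). *Itgae* is at -1.87, with pairs at -1.35 and -2.46, and *Itgb7* changes sign between the pairs.

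Ratios of chains within a library do not depend on the scaling between libraries. They were formed from reads per kilobase of exon for 6 pairs of chains, most of which meet on the cell surface. The log2 ratio of *Itgae* to *Itgb7* was -4.44 and -3.99 in WT and -5.81 and -6.74 in TfR1 cKO. Its mean difference was -2.06, so the ratio in TfR1 cKO was 0.240 times that in WT. The exact two-sided permutation test gave p = 0.333, the smallest that 2 against 2 libraries allow (0.4 after adjustment over the 6 ratios).

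CD103 and α4 share β7 as a partner, and their ratio lay apart between the genotypes too. The log2 ratio of *Itgae* to *Itga4* was -0.36 and -0.56 in WT and -1.53 and -2.52 in TfR1 cKO, a mean difference of -1.56. Per kilobase, *Itgae* made up 43.8% and 40.5% of the *Itgae* and *Itga4* reads in WT (42.1% ± 2.34, SD, n = 2) and 25.7% and 14.9% in TfR1 cKO (20.3% ± 7.69, SD, n = 2). Among the reads of all tested integrin chains, *Itgae* held 1.46% ± 0.161 in WT and 0.437% ± 0.171 in TfR1 cKO (SD, n = 2). The groups did not overlap in any of these 3 measures, which all rest on the same *Itgae* counts. For the ratio, the exact permutation test gave p = 0.333 (0.4 after adjustment over the 6 ratios).

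The ratios without CD103 differed less. *Itga4* to *Itgb1*, the chains of α4β1, had overlapping groups, with log2 ratios of -0.73 and -0.46 in WT and -0.64 and -0.61 in TfR1 cKO and a mean difference of -0.03 (exact permutation p = 1.0). *Itga4* to *Itgb7* was -4.08 and -3.43 in WT and -4.29 and -4.22 in TfR1 cKO, a mean difference of -0.50. *Itgal* to *Itgb2*, the chains of LFA-1, was -1.46 and -1.71 in WT and -1.90 and -2.11 in TfR1 cKO, a mean difference of -0.42. Both lay lower in TfR1 cKO without overlap. For *Itga4* to *Itgb7* the mean difference was smaller than the gap between the 2 WT libraries, and for *Itgal* to *Itgb2* it was larger. *Itgb7* to *Itgb1* was the one ratio that lay higher in both TfR1 cKO libraries, at 3.65 and 3.61 against 3.35 and 2.97 in WT. With 1 library left out in turn, the mean difference ranged from -2.52 to -1.60 for *Itgae* to *Itgb7* and from -0.82 to -0.17 for *Itga4* to *Itgb7*, the smaller size of the latter being without WT replicate 2. For *Itgb7* to *Itgb1* it was 0.28 without WT replicate 2 and 0.66 without WT replicate 1.

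**Figure D3:**
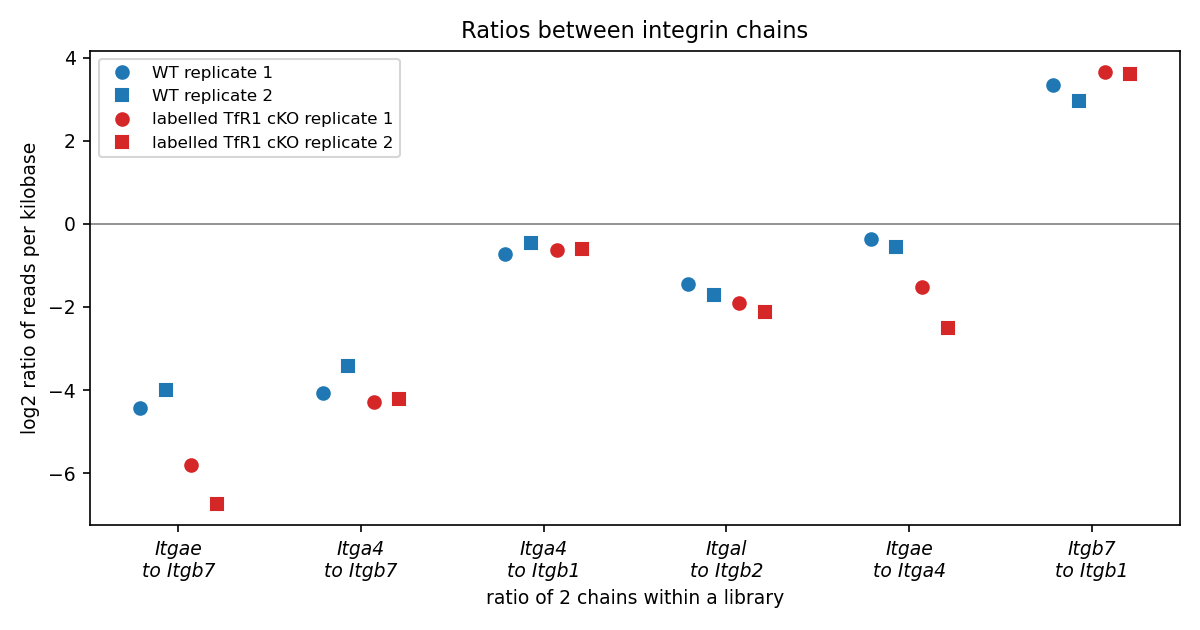
The log2 ratio of reads per kilobase between 2 integrin chains within each library, for 6 pairs of chains, with WT in blue and TfR1 cKO in red. The ratios of *Itgae* to *Itgb7* and of *Itgae* to *Itga4* show the widest gaps between the groups, with mean differences of -2.06 and -1.56, while *Itga4* to *Itgb1* overlaps.

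Levels scaled to both exon length and library size (RPKM) placed the chains of LFA-1 and β7 far above the rest. The mean over the 4 libraries was 460.6 RPKM for *Itgb2*, 228.5 for *Itgb7* and 134 for *Itgal*, with ranges that did not overlap. *Itgb1* followed at 21.6 RPKM, *Itga4* at 14.1, *Itga6* at 11.9, *Itgb3* at 10.7, *Itgae* at 7.37 and *Itgav* at 2.30. From *Itga4* downwards, each chain overlapped its next neighbour in range over the 4 libraries, so these neighbours are not told apart. The last, *Itgav*, lay below every value of *Itga4*, *Itga6* and *Itgb3*, and below *Itgae* within each library. Within WT, *Itgae* was the sixth of the 9 at 11.6 ± 1.86 RPKM, and within TfR1 cKO the eighth at 3.16 ± 1.19 RPKM (SD, n = 2). The longest coding transcript in place of all exons moved *Itga6* to the fourth place, ahead of *Itgb1* and *Itga4*, and made the ranges of *Itgb7* and *Itgal* overlap.

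Of the 18 other integrin chains, 10 had enough reads to be tested. Of these, 1 was lower at the unadjusted p with the minimum change, against 2.48% of all genes tested. That chain, *Itga10*, which encodes a collagen receptor of cartilage, was at 1.96 and 3.37 CPM in WT and 0.403 and 0.876 CPM in TfR1 cKO, with a log2 fold change of -2.06 and a standard error of 0.66 (edgeR, unadjusted p = 0.0254, adjusted p = 0.911). It rests on 24 and 36 reads in WT and on 7 and 12 reads in TfR1 cKO. It passed the filter on counts only with its WT libraries, so the count of 1 in these 10 depends on that filter. *Itga5*, the fibronectin receptor chain, was at 19.6 and 16.9 CPM in WT and 17.6 and 21.0 CPM in TfR1 cKO, in overlapping ranges. The median of the 10 was 0.33, with 4 of them below 0, but it was -0.31 without TfR1 cKO replicate 2 and -0.03 over the chains with at least 10 reads in every library.

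*Itgad*, an α chain that macrophages of the spleen carry with β2, followed the macrophage markers and not the genotypes. Its values were 19.9 and 0.187 CPM in WT and 0.346 and 45.6 CPM in TfR1 cKO. The same order was seen in 6 of the 10 other chains (*Itgad*, *Itgax*, *Itgb5*, *Itga9*, *Itga7* and *Itga5*, picked out after their values were seen) and in all 19 macrophage markers tested, against 22.9% of all genes tested. For *Itgad* the lower value at high macrophage RNA was 57.5 times the higher value at low macrophage RNA. That ratio was 3.65 for *Itgb5*, but 1.45 for *Itga7*, 1.37 for *Itga9* and 1.11 for *Itga5*. It could not be formed for *Itgax*, which had no reads where macrophage RNA was low. Among the 9 chains described above the same order was seen in *Itgb7* alone, and the reverse order in *Itgav* and *Itga6*. *Csf1r*, the receptor that macrophages need to survive, was at 124 and 1.97 CPM in WT and 4.96 and 371 CPM in TfR1 cKO. *Itgam*, which encodes CD11b, had at most 9 reads in any library.

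**Figure D4:**
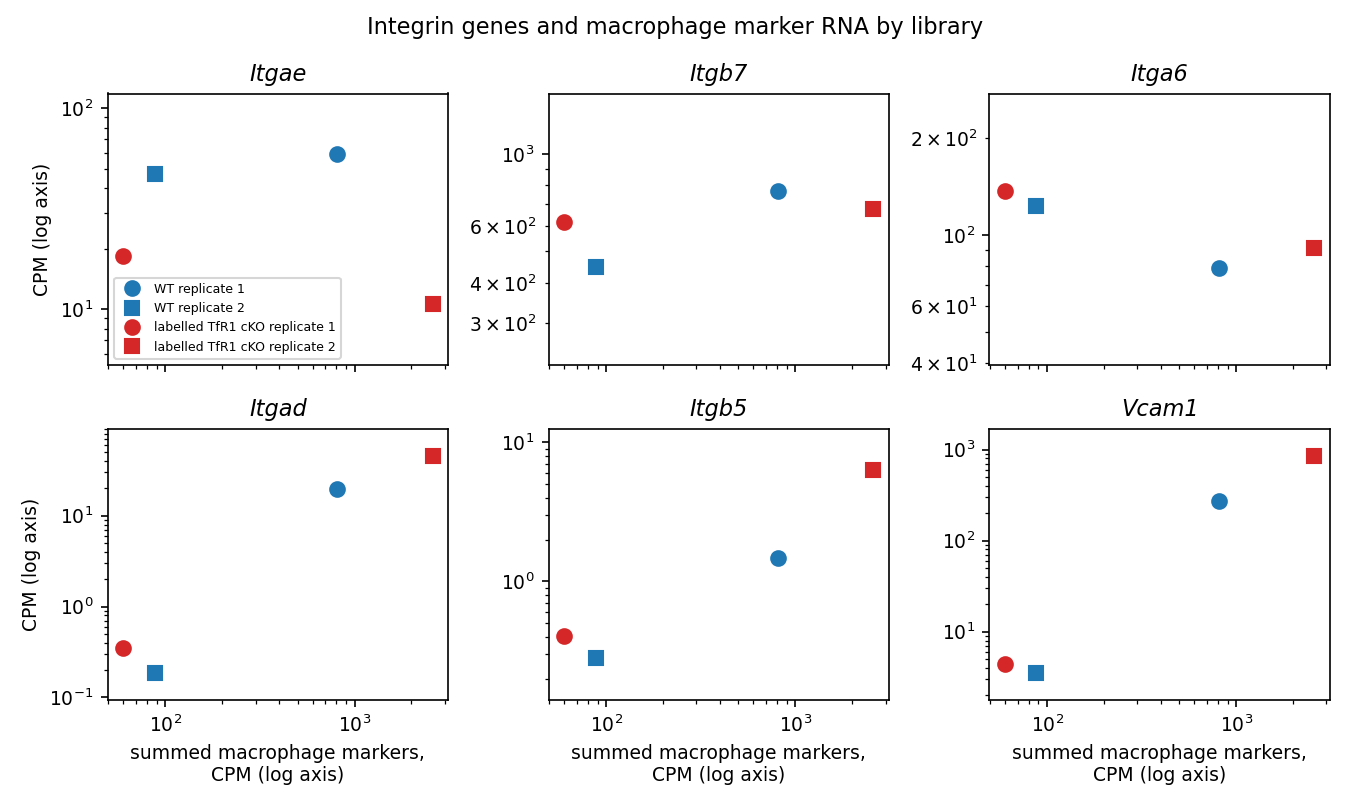
The level of 6 integrin genes and ligands in each library against the summed level of 20 macrophage markers, both in CPM on log axes. *Itgad*, *Itgb5* and *Vcam1* are high in the 2 libraries with much macrophage RNA, 1 of each genotype, whereas *Itgae* is lower in both libraries labelled TfR1 cKO (red) than in both WT libraries (blue).

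Most ligands of these receptors had few reads or none. Of 19 ligand genes, 9 were tested, and 0 passed at the unadjusted p with the minimum change in edgeR. Of all 12536 genes tested, 311 were lower and 200 higher by this rule. *Cdh1*, which encodes E-cadherin, had at most 2 reads in a library, and *Madcam1* at most 8. *Vcam1*, the ligand of α4β1, had the highest mean of the list, with 273 and 3.56 CPM in WT and 4.38 and 849 CPM in TfR1 cKO. It followed the macrophage markers. *Icam1*, a ligand of LFA-1, was at 116 and 86.0 CPM in WT and 70.3 and 106 CPM in TfR1 cKO, in overlapping ranges.

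Of 39 genes of integrin activation and adaptor proteins, 31 had enough RNA reads to be tested, with a median log2 fold change of -0.08. *Tln1*, which encodes talin, was the one of the 31 lower at the unadjusted p with the minimum change, against 2.48% of all genes tested. It was at 857 and 711 CPM in WT and 545 and 471 CPM in TfR1 cKO, without overlap. Its log2 fold change was -0.63 with a standard error of 0.17 (edgeR, unadjusted p = 0.0124, adjusted p = 0.911). The members of highest level, *Rassf5* and *Flna*, encode a RAP1 effector and filamin. *Rassf5* was at 929 and 940.4 CPM in WT and 880.1 and 821 CPM in TfR1 cKO, with a log2 fold change of -0.14. *Flna* was at 911 and 832 CPM in WT and 819 and 450.0 CPM in TfR1 cKO, with a log2 fold change of -0.46 and its lowest value in TfR1 cKO replicate 2. *Rasgrp2*, the exchange factor that loads RAP1, was the one gene higher at an unadjusted p under 0.05 (0.0276 in edgeR, any size of change). Of all 12536 genes tested, 236 were higher in this way, and *Rasgrp2* is named after its values were seen. It was at 219 and 183 CPM in WT and 269 and 290.1 CPM in TfR1 cKO. Both TfR1 cKO libraries lay below WT in 12 of the 31, against 18.9% of all genes, and above in 5, against 16.0%.

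TGF-β signalling and RUNX3 are known inputs to *Itgae* in T cells, and all 11 genes of that list were tested. The median log2 fold change was -0.27, with 7 below 0, but without TfR1 cKO replicate 2 it was 0.14. *Tgif1*, a co-repressor of SMAD proteins, was the one of the 11 lower at the unadjusted p with the minimum change, against 2.48% of all genes tested. It was at 142 and 119 CPM in WT and 76.9 and 75.7 CPM in TfR1 cKO, with a log2 fold change of -0.77 and a standard error of 0.15 (edgeR, unadjusted p = 0.0037, adjusted p = 0.911). The members of highest level were *Tgfbr2*, a receptor chain, and *Skil*, another SMAD co-repressor. *Tgfbr2* was at 282 and 202 CPM in WT and 212 and 185 CPM in TfR1 cKO, and *Skil* at 165 and 223 CPM against 191 and 130.2 CPM. Both overlapped between the genotypes. So did *Runx3*, at 20.1 and 12.5 CPM in WT and 11.6 and 14.8 CPM in TfR1 cKO.

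*Itgb8*, which pairs with αv and on Treg cells releases active TGF-β, is named beside this list after its values were seen. It was at 17.4 and 15.1 CPM in WT and 13.1 and 8.61 CPM in TfR1 cKO, without overlap. Its log2 fold change was -0.58 with a standard error of 0.31 (edgeR, unadjusted p = 0.121). It did not pass.

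Among the Treg cell markers, *Ctla4*, an inhibitory receptor, was lower at the unadjusted p with the minimum change, as were 2.48% of all genes tested. It was at 407 and 427 CPM in WT and 241 and 235 CPM in TfR1 cKO, with a log2 fold change of -0.81 and a standard error of 0.13 (edgeR, unadjusted p = 0.00145, adjusted p = 0.911). *Il2ra*, which encodes CD25, and *Cd3e*, a chain of the T cell receptor complex, had the highest levels. *Il2ra* was at 1151 and 1111 CPM in WT and 1087 and 853 CPM in TfR1 cKO, a log2 fold change of -0.22. *Cd3e* was at 1088 and 904 CPM in WT and 714 and 765 CPM in TfR1 cKO, a log2 fold change of -0.43 (edgeR, unadjusted p = 0.0383). *Foxp3*, named after its values were seen, was at 194 and 130 CPM in WT and 122 and 114 CPM in TfR1 cKO. Its log2 fold change was -0.46 (edgeR, unadjusted p = 0.0918). Of the 8 markers, 1 had a log2 fold change above 0.

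The genes whose pattern over the 4 libraries was nearest to that of *Itgae*, by the root mean square difference of centred log2 CPM, were *Popdc2*, *Tspan2*, *Lrrc16a*, *Hspa1b* and *Ttc8*. That difference ran from 0.103 for *Popdc2* to 0.201 for *Ttc8*. All 5 were low, at no more than 3.11 CPM in any library, and *Hspa1b* has a near-identical copy that can share its reads. Their log2 fold changes lay between -2.25 (*Popdc2*) and -1.68 (*Ttc8*), each with an adjusted p of 0.911 in edgeR. In TfR1 cKO replicate 2 they stood at 0.146 to 0.584 CPM. They therefore passed the filter on counts only with their WT libraries, and their lower direction is not a test. Values near that of *Itgae* follow from the choice of these genes by their pattern in the same libraries. None encodes an integrin chain.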

How the data were processed

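Treg cell RNA was measured in 2 WT and 2 TfR1 cKO libraries, grouped by genotype label, with 0 sample columns left out. The authors deposited raw counts per Ensembl gene. The submitters' processing notes name Trim Galore 0.6.7, STAR 2.7.9a, featureCounts and mm10, whereas the methods name mm9; strand and annotation release are not given in the sources used here. Symbols matched 32799 of 47729 identifiers, and the rest held 0.907% of counts. Coordinates are those of RefSeq on GRCm38.p6, and exon lengths those of GENCODE vM1, older than the counting. For each gene passing filterByExpr, TMM-scaled counts were tested with edgeR 4.0.16 in R 4.3.3 (quasi-likelihood, genotype only, Benjamini-Hochberg adjustment). A call needed an adjusted p under 0.05 and a log2 change of at least 0.5. The standard error is the log2 fold change divided by the root of F. Log2 CPM used a prior count of 2. DESeq2 1.42.0, other scalings, filters and minimum changes, a replicate block and the omission of each library were the alternatives. The fit was also run on simulated counts with 200 genes changed, and how many it recovered is not given here. The totals allow counting errors small beside the spread between replicates for all but the lowest genes.

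All 9 chains were to be named, as were, in each other list, genes past an unadjusted p under 0.05 with the minimum change and the 2 of highest mean CPM, and the 5 genes nearest in pattern to *Itgae*; markers of other cell types are given as sums. The chains, the lists and this rule were chosen with earlier results of these data known. The marker sums were 33.8 to 45.1 CPM for 9 B cell markers, 17.6 to 288 for 6 matched erythroid, 13.0 to 15.0 for 4 CD8 T cell, 14.5 to 16.7 for 7 NK cell, 3.11 to 7.12 for 7 dendritic cell and 0.0819 to 2.99 for 8 neutrophil markers, 5 of the last at 0 in all libraries.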

Additional observations from a re-analysis of the deposited data

How the results depend on the processing

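Over all genes, edgeR called 0 genes at the adjusted p and, unadjusted, 200 higher and 311 lower. DESeq2 called 6 higher and 33 lower at the adjusted p. Without a count filter these were 167 and 95, with 650 higher unadjusted. A minimum log2 change of 1 left 91 higher and 104 lower unadjusted. With single libraries left out, 169 to 353 were higher and 131 (without WT replicate 1) to 382 lower unadjusted, 353 being without TfR1 cKO replicate 1. With the replicate number as a block, 70 were higher and 141 lower unadjusted, and *Itgae* was at -1.92. Same-numbered libraries deviated in opposite directions (correlation of -0.61), so the numbers were not taken to pair them. The crossed pairing, added after seeing this, called 150 higher and 210 lower at the adjusted p (596 and 519 unadjusted). Of the 9 chains, 1 passed with the minimum change, *Itgae* at -1.90. *Itgal* had an adjusted p of 0.027 in this edgeR fit, at -0.43, short of the minimum change. This pairing was picked from the same values it was then fitted to. Its adjusted p-values can be too low and are not those of a planned test.

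Of the 9 chains, 1 was lower at the adjusted p with DESeq2 or without a filter, *Itgae* at -1.86 in both; 0 were in the other edgeR fits of all 4 libraries except the crossed pairing, and 1 passed unadjusted. With no minimum change 2 were lower unadjusted. With libraries left out 1 to 2 were lower and 0 to 1 higher unadjusted. In the single pairs, chosen after seeing the data, *Itgae* was at -1.35 and -2.46. *Itgb2* turned to 0.0094 (DESeq2, and its size factors), 0.033 (library totals), 0.0067 (no filter) and 0.017 (at least 10 counts). With libraries left out, *Itgb7* ranged from -0.25 to 0.55, *Itgb2* from -0.067 to 0.076, *Itgav* from -0.38 to 0.21 and *Itga6* from -0.12 to 0.53. The list medians ranged from -0.26 to -0.11 for the 9 chains, -0.31 to 0.54 for other chains and -0.53 to 0.06 for ligands. They ranged from -0.13 to -0.014 for activation and adaptor genes and -0.36 to 0.14 for TGF-β inputs. In single pairs, medians were -0.30 for the 9 chains and -0.15 for activation and adaptor genes (WT replicate 1 against TfR1 cKO replicate 2). The median was 0.069 for TGF-β inputs in the other pair. The causes were not tested. Low counts limit *Itga10* and the genes nearest to *Itgae*.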
